A study of Mus musculus with 18 samples.

Results

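The genes described here encode the proteins of the cytosolic ribosome. They are the protein-coding genes of the GENCODE mouse annotation whose symbol is Rpl or Rps followed by a number with at most 1 letter, or by p0 to p2 or a. The rule found 80 genes, 49 of the large (60S) and 31 of the small (40S) subunit, among the 54446 gene identifiers counted. Another 3 genes fit the symbol pattern but are annotated as pseudogenes and were left out. Expression was measured by mRNA sequencing in 18 libraries of embryoid bodies, which are clusters grown in suspension from C57BL/6 mouse embryonic stem cells, after 7 days of differentiation. The groups of the Mettl14 line were a control, a conditional knockout (CKO) of Mettl14 and that knockout with 5 µM GSK343, an inhibitor of the H3K27 methyltransferase EZH2. Those of the Mettl3 line were a control, a CKO of Mettl3 and that knockout with 5 µM GSK-J4, an inhibitor of the H3K27 demethylases KDM6A and KDM6B. Each of the 6 groups had 3 libraries, the untreated samples received the solvent DMSO, and the design asks how a methyltransferase inhibitor alters the expression changes of the Mettl14 knockout.

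A ribosome holds 1 copy of nearly every ribosomal protein, so cells make these proteins in balanced amounts, and the stalk proteins P1 and P2, which are bound by P0, are the exception. Their mRNAs are short, very abundant and stable, and many begin at the cap with a C followed by an unbroken run of pyrimidines (the 5′ terminal oligopyrimidine, or TOP, motif), through which growth signals acting on mTORC1 and the RNA-binding protein LARP1 adjust their translation. METTL3 and METTL14 are the paired subunits of the complex that places N6-methyladenosine on mRNA, and METTL3 is the subunit that carries out the reaction.

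Total counts ran from 721853 to 32540164 per library, so a floor of 3 counts corresponded to 0.0922 to 4.16 CPM (counts scaled to the library total). The targeted genes were looked at first. Mettl14 stood at 16.4, 17.8 and 16.4 CPM in the controls, at 16.2, 22.8 and 19.3 in the libraries labelled knockout, and at 11.7, 16.7 and 12.5 with GSK343 (log2 change of the knockout 0.21 ± 0.37, SE). Mettl3 stood at 21.2, 36.3 and 19.9 CPM in its controls, at 27.5, 7.28 and 18.9 in the labelled knockout, and at 7.55, 25.9 and 12.0 with GSK-J4 (−0.53 ± 0.63). Neither gene passed the test between labelled knockout and control (edgeR quasi-likelihood test, Benjamini-Hochberg adjusted p = 1.00 for each), and the groups overlapped. Reads of the whole gene are counted, and the deleted exons may be a small piece of it, so these levels do not check the labels. The stem cell genes Pou5f1, Nanog and Zfp42 and the lineage genes Cdx2, T, Afp, Ttr, Foxa2 and Sox17 were at 0 CPM in the median library. Of the same marker lists, Klf4 (median 45.2 CPM), Nes (59.6) and Map2 (12.5) were present in every library, and 8 mesenchyme and fibroblast genes summed to 33100 to 52680 CPM in the 15 libraries without GSK-J4. In the 3 GSK-J4 libraries that sum was 12320 to 21290 CPM, and mitochondrial mRNA made up 0.174 ± 0.0666% of the counts, against group means of 2.12 to 2.98% elsewhere. Genes that overlap ribosomal RNA took 7.57% of the counts of Mettl14 knockout replicate 3, against 0.233 to 1.34% in the other 17 libraries. Nothing in the labels states that replicates were separate cultures, so the spread that the p-values measure is only that of these samples and may be technical. In such bulk samples, fewer cells of a type and less RNA per cell cannot be told apart.

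The annotated starts of the genes show how far the pyrimidine run that marks their mRNAs can be read from the reference. The run searched for was C followed by at least 4 bases that are each C or T, on the transcribed strand, starting within 5 bases of the annotated start. RefSeq (GRCm38.p6) gave a start for 60 of the 80 genes, and 28 of these (46.7%) had such a run at a start, against 21.1% of 26965 other genes and 18.3% of all 32851 starts. The share was 16 of 37 (43.2%) for the large subunit and 12 of 23 (52.2%) for the small. The lines below give 30 bases, 10 before the start and 20 from it on, of members that the results return to, chosen to show both kinds of start. Capitals mark the run in the first 4. The other 4 have none that starts within 5 bases of the annotated start. That says nothing of the rest of the window, and in Rps7 such a run lies further downstream, outside the bases searched.
Rps23 (chr13:90923112-90923141, plus strand): cggctgggcggggCTTCCCgcaatgccttg
Rps9 (chr7:3704031-3704060, plus strand): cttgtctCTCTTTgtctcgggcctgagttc
Rps27l (chr9:66946076-66946105, plus strand): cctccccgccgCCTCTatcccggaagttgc
Rpl13a (chr7:45128726-45128755, minus strand): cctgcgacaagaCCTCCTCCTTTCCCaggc
Rpl41 (chr10:128549149-128549178, minus strand): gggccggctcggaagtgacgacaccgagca
Rpsa (chr9:120127756-120127785, plus strand): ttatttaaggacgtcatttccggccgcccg
Rps7 (chr12:28635934-28635963, minus strand): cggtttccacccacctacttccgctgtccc
Rps3 (chr7:99483690-99483719, minus strand): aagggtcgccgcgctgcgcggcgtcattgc
In Rps23, Rps27l and Rpl13a the run starts within a few bases after the annotated start, and in Rps9 it starts before it. A match in the reference is a description and does not show where transcription began in these samples.

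The members were genes with short transcripts. Their principal transcripts (the main isoform in the annotation) had a median length of 774.5 bases, from 345 to 5130, against 2421 over 21943 protein-coding genes. Their exons numbered 5 at the median and 1 to 10 in range, and GC content was 50.99% at the median against 48.71%. They lay on 19 chromosomes, with 14 of them on chromosome 7, and 29 held at least 1 small nucleolar RNA gene within their bounds, up to 5 in Rpl4. Copies elsewhere in the genome are a feature of this family, since its abundant mRNAs have left many processed pseudogenes. A median of 54.1% of a member's 50-base windows also occurred in another annotated gene (0 to 98.65%), and 46 members exceeded 50%. At 90% identity over at least 50% of the principal transcript, Rpl7a had 87 such copies, Rpl21 75 and Rpl29 64, with a median of 7. The count depends on the transcript used: over at least 50% of the longest transcript, Rpl7a had 76 copies, Rpl21 0 and Rpl29 9. How the authors' counting treated reads that fit several places is not given in the sources used here, so the levels of members with many copies are uncertain. Over the 75 members with an appreciable level, that level had a Spearman correlation of 0.0652 with the share of windows found elsewhere. With the number of copies it was 0.0385 by the principal transcript and 0.282 by the longest one. These are correlations across genes that share the same libraries.

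Levels between members were compared as CPM per kilobase of principal transcript, after scaling (TMM) within each line. Rplp1, a stalk protein of the large subunit that helps recruit elongation factors (chromosome 9, 61913284 to 61914542, minus strand), led with 2698 ± 1160 (SD over 18 libraries). Among large-subunit genes it was followed by Rpl23a, near the exit of the peptide tunnel, at 1637 ± 533, and by Rpl41, the smallest ribosomal protein, at 1499 ± 649. Abundant small-subunit genes included Rps23, part of the decoding centre, at 1118 ± 428, and Rps9, which contributes to decoding accuracy, at 1029 ± 395. Rplp1 exceeded Rpl23a by less than its own SD over libraries but by more than that of Rpl23a. The differences between Rpl23a and Rpl41 and between Rps23 and Rps9 were smaller than either SD. These SDs include shifts between libraries that members share, so they do not measure the spread of a difference within a library. Rplp1 had more CPM than Rpl23a in each of the 18 libraries. The stalk partners Rplp2 and Rplp0 stood at 1068 ± 384 and 1040 ± 283, and Rpsa, also known as the laminin receptor, at 968.5 ± 379. Rpl22, an RNA-binding protein that the ribosome can do without, shows how much the length matters: it ranked 6 of 80 at 1132 ± 422 per kilobase of the principal transcript, but 47 at 262 ± 97.6 per kilobase of its longest one. At the low end among the 75 were Rpl13a, known for its part in silencing inflammatory mRNAs, at 38.4 ± 17.3, Rps15a at 46.7 ± 13.0 and Rpl29 at 69.5 ± 19.9. The length matters for Rps15a too, whose principal transcript of 5130 bases is the longest of the members. Before division by length its group means were 207 to 290 CPM, against 23.7 to 50.5 CPM for Rpl13a.

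**Figure D1:**
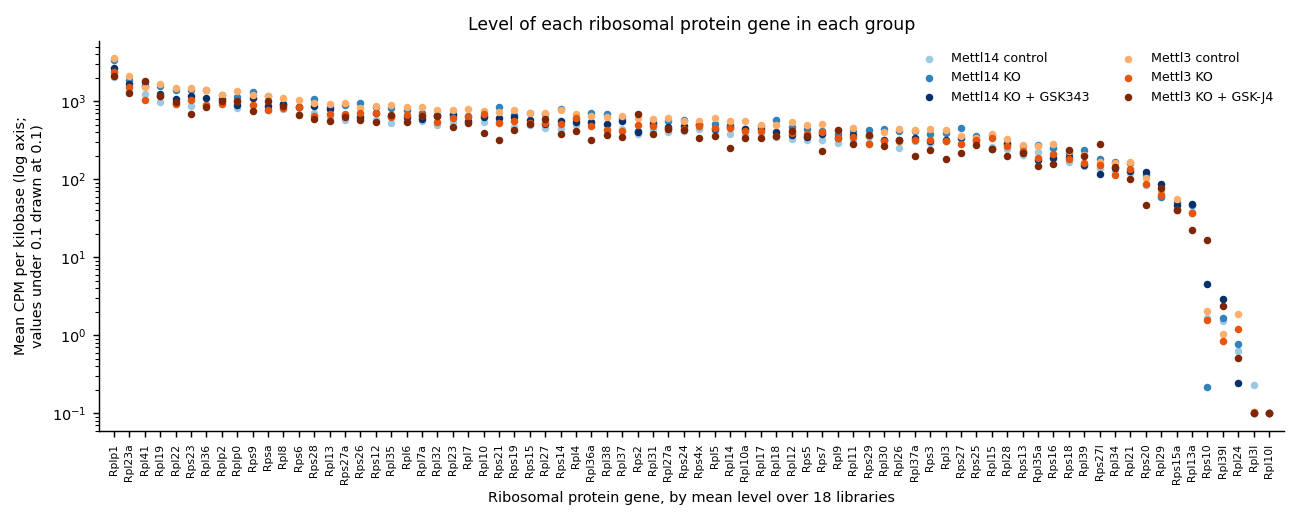
Level of 76 of the 80 members as CPM per kilobase of its principal transcript (log axis, values under 0.1 drawn at 0.1), with 1 point per gene and group mean of 3 libraries; genes of both subunits are ordered by their mean over the 18 libraries. The 6 groups lie close together for most genes, and 5 genes fall far below the rest.

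Near 0, at a mean over the 18 libraries under 10 CPM per kilobase, stood 5 members. Rpl10l and Rpl3l, paralogs known mainly from testis and from muscle, had 1 count in all (Mettl14 control replicate 2) and counts in 2 libraries only (10 in Mettl14 control replicate 3 and 12 in Mettl3 knockout replicate 3). Rpl39l, the third such paralog, had 32 to 62 counts in each group of 3 libraries. Rpl24 and Rps10 are core subunits and not tissue-specific paralogs, yet Rpl24 had between 7 and 99 counts per group and Rps10 between 4 and 223. In the annotation, 71.5% of the Rpl24 exons are overlapped on the same strand by the readthrough gene Gm28037, 53.6% of those of Rps10 by RPS10-NUDT3, and 59.3% of those of Rpl13a by Gm45713. These are the only 3 members overlapped for 50% or more, and the 3 overlapping genes had 0 counts in all 18 libraries, and whether the overlap bears on the members' counts was not tested. Rps27l, a paralog of Rps27 known as a target of p53, was well detected, at 173 ± 75.9 CPM per kilobase. Rps4l, which some catalogues list with the family, is among the 3 annotated pseudogenes.

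Together the members took 2.31 to 6.37% of a library's counts. In the Mettl14 line the share was 2.62, 2.66 and 4.06% in the controls, 6.37, 3.19 and 2.31% in the labelled knockout and 2.97, 3.35 and 4.46% with GSK343. The 3 groups of this line overlapped, and the knockout held both the highest and the lowest library of the 18. In the Mettl3 line it was 3.78, 4.92 and 3.89% in the controls, 3.87, 3.17 and 2.50% in the labelled knockout and 3.85, 2.81 and 3.41% with GSK-J4. Here the means were 4.20 ± 0.63%, 3.18 ± 0.68% and 3.36 ± 0.52% (SD, n = 3), and both knockout groups overlapped the controls only through their own highest library. The subunits kept step throughout. Counts of the large subunit were 1.61 to 1.80 times those of the small one in every library, and the medians of the 2 subunits, as log2 deviation from the mean of the line's 9 libraries, differed by 0.046 at the median library and by at most 0.18 (GSK-J4 replicate 3).

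**Figure D2:**
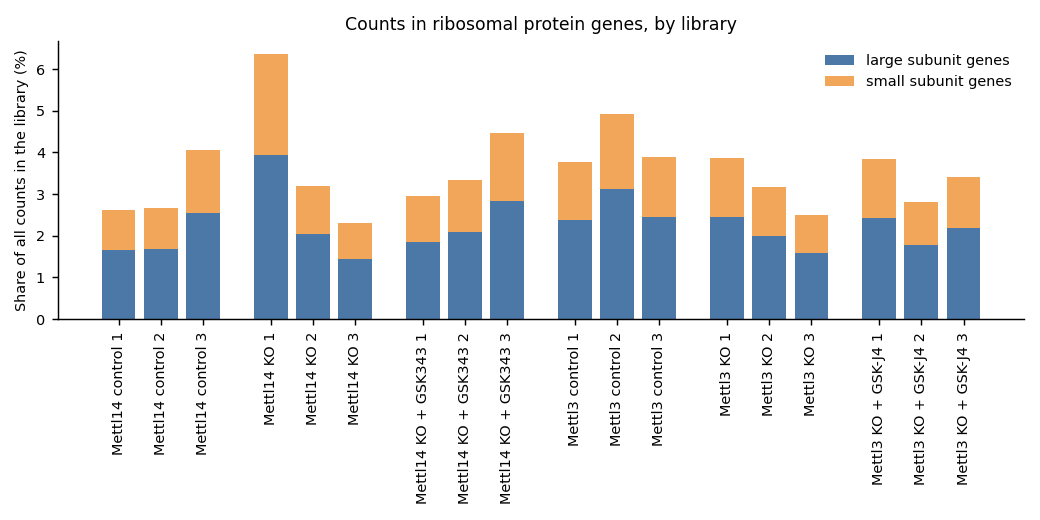
Percent of each library's counts in members of the large subunit and of the small subunit (stacked bars from 0), with 1 bar for each of the 18 libraries. Mettl14 knockout replicate 1 stands highest at 6.37%, while replicate 3 of the same group is lowest at 2.31%.

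The members stood higher on average in the Mettl14 knockout than in the control, but only with knockout replicate 1 in the fit. The log2 change was above 0 in 76 of the 77 members tested (51.7% of all 13882 genes tested were above 0), with a median of 0.42 against 0.01 over all genes. It was 0.41 in the large and 0.46 in the small subunit. No member and no other gene passed the test (0% called by edgeR's quasi-likelihood test, and 0 genes by DESeq2). At an unadjusted p under 0.05 there were 3 members, against 208 genes (1.5%) in all, and in 0 members did the groups separate, against 3.26% of genes that separated upward and 4.21% downward. Left without knockout replicate 1, the median was −0.11, with 20 members above 0, 57 below and 0 at an unadjusted p under 0.05. Other omissions moved it the other way: the median was 0.66 with 49 members at an unadjusted p under 0.05 without knockout replicate 3, 0.57 with 18 without knockout replicate 2, 0.65 with 34 without control replicate 3, and 0.68 with 53 without the 2 shallowest libraries. Without control replicate 1 or 2 it was 0.34 or 0.33, with 0 such members.

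Knockout replicate 1 was the highest of the line's 9 libraries for 74 of the 75 members above the near-0 range. Rplp1 was at 685, 910 and 1483 CPM in the controls and at 2925, 1238 and 870 CPM in the knockout. Its change was 0.71 ± 0.37 on the log2 scale (SE), and without the 2925 the knockout values lie inside the range of the controls. Rpsa showed the same order, with 843, 1049 and 1842 CPM in the controls and 3372, 1118 and 1118 CPM in the knockout. Rps14, which contacts mRNA on the platform of the small subunit, had the smallest p: it stood at 171, 249 and 366 CPM in the controls and at 844, 344 and 244 CPM in the knockout (0.87 ± 0.38, unadjusted p = 0.0318). Rpl26, an activator of p53 translation, was at 94.2, 127 and 178 CPM against 366, 146 and 147 CPM (0.73 ± 0.32, unadjusted p = 0.0343). Rps23 was at 672, 826 and 981 CPM against 2086, 1067 and 759 CPM (0.66 ± 0.30, unadjusted p = 0.0410). The edgeR adjusted p was 1.00 for each of these, and every one had an overlap of its groups. For Rpl18 (0.73 ± 0.38) the sign turned without that library, to −0.17. Rps27a, which encodes a fusion of ubiquitin and a ribosomal protein, changed by 0.66 ± 0.32 in the fit of all libraries of the line. With a library left out, the change of Rps27a ran from 0.01 to 0.93.

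**Figure D3:**
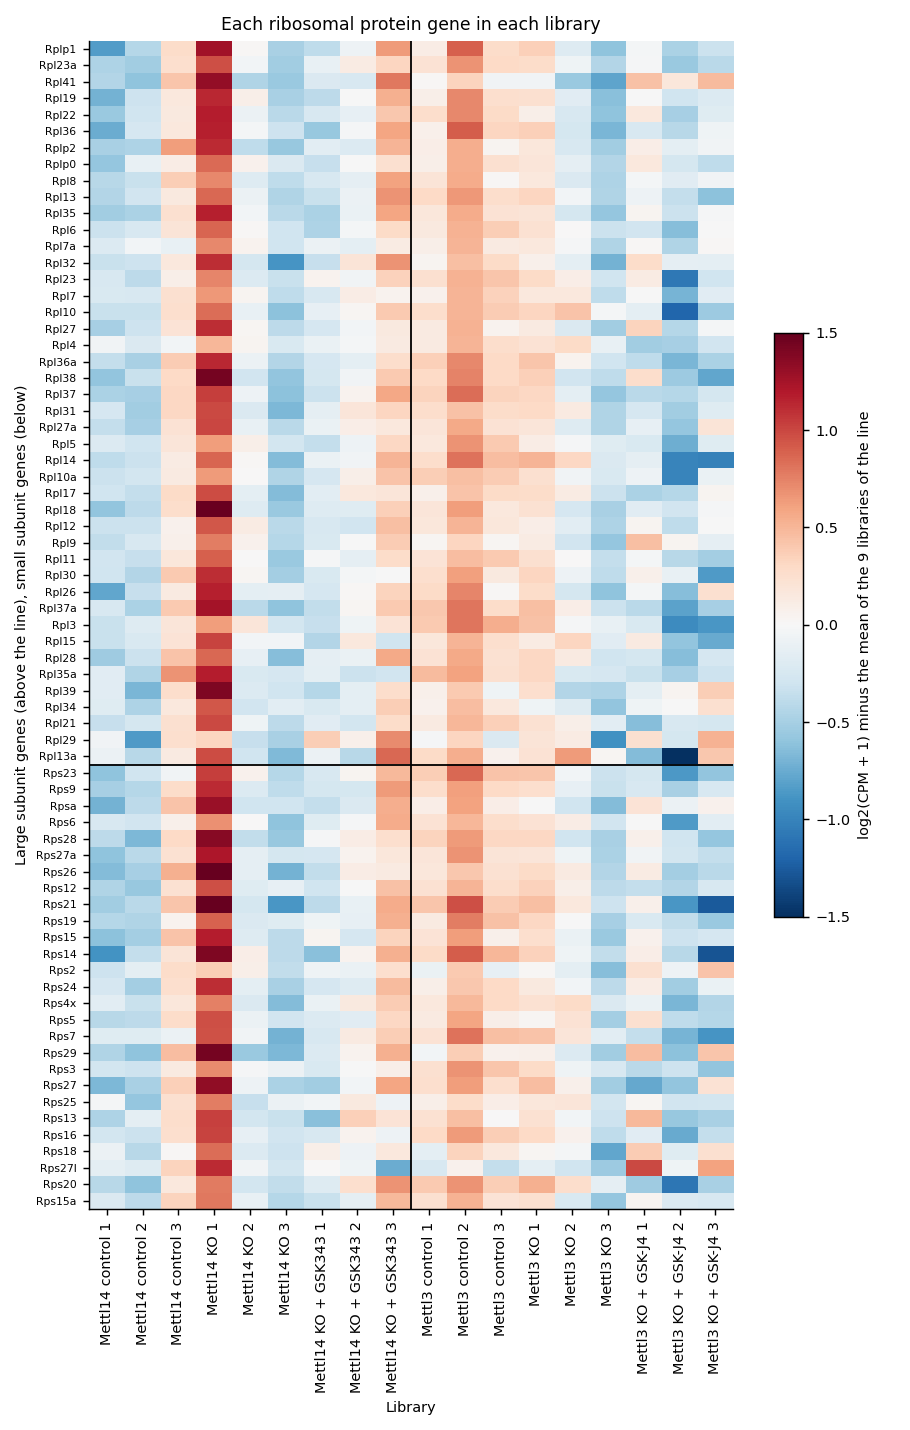
Log2(CPM + 1) of 71 of the 75 members above the near-0 range minus its mean over the 9 libraries of the same line, with genes as rows (44 of the large subunit above the line, 27 of the small below) and libraries as columns. The column of Mettl14 knockout replicate 1 is high nearly throughout, Mettl3 control replicate 2 is high for most genes, and both subunits follow the same library pattern.

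The excess in this library was uneven and ran with transcript length. Over the 75 members, replicate 1 was 2.36 times the mean of the other 2 knockout libraries at the median, from 1.40 to 4.34 times. The ratio was 2.67 in the 25 members with the shortest principal transcripts (up to 597 bases) and 2.16 in the 25 longest (914 bases or more). Other short genes were high there too. As log2 deviation from the mean of the 9 libraries, the members were at 0.99 at the median, 695 other protein-coding genes of at most 1000 bases at 0.77, mitochondrial ribosomal proteins at 0.61, proteasome subunits at 0.47 and translation factors at 0.18. Within this library the deviation had a Spearman correlation with length of −0.55 among members and −0.46 among 12237 other protein-coding genes, as a description across genes. The same pairing appeared in low libraries: in knockout replicate 3, the library with the high share of counts overlapping ribosomal RNA, the members were at −0.41 and the other short genes at −0.36, and in control replicate 1 they were at −0.35 and −0.29. The length correlation in knockout replicate 3 was 0.106 among members and 0.287 among other genes. In GSK343 replicate 3 the members were at 0.38 and the other short genes at 0.11. The length correlations there were 0.004 and −0.077. The part of transcript length and of the ribosomal RNA share in this pattern was not tested.

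**Figure D4:**
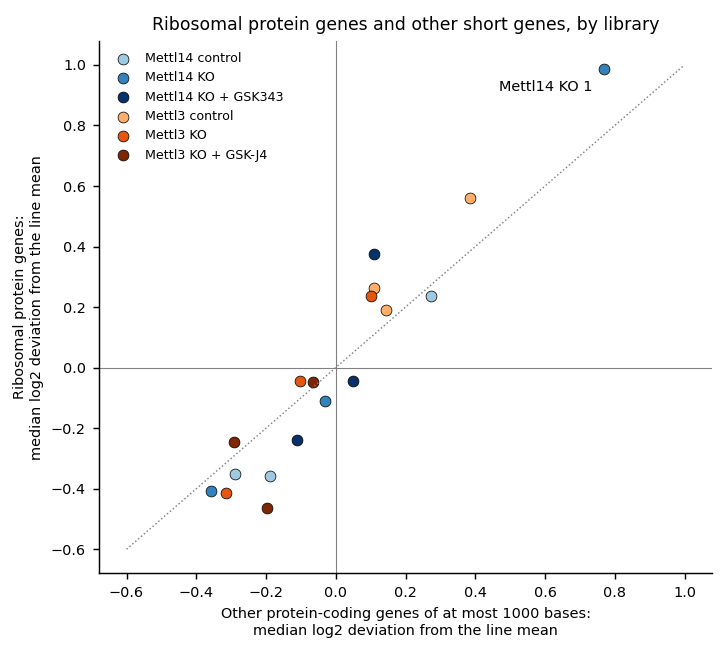
For each of the 18 libraries, the median log2 deviation of the members (vertical axis) against that of other protein-coding genes with a principal transcript of at most 1000 bases (horizontal axis), each taken from the mean of the line's 9 libraries; the dotted line marks equal values. Libraries high in one are mostly high in the other. Within the Mettl14 knockout the values run from −0.41 against −0.36 to 0.99 against 0.77. The lowest member median of the 18 libraries, −0.46 against −0.20, is that of GSK-J4 replicate 2. GSK343 replicate 3 lies at 0.38 against 0.11.

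With GSK343 no member passed the test against either other group of the Mettl14 line. Against the untreated knockout the median change was −0.25 (−0.03 over all genes), 71 of 77 members were below 0 (53.2% of all genes), and 0 members passed the test, against 4 genes in all (0.0288%). No member reached an unadjusted p under 0.05, against 797 genes (5.74%), and DESeq2 called 0 members among its 55 genes. The groups overlapped in every member, while 4.55% of all genes separated upward and 5.45% downward. Without knockout replicate 1 the median was 0.31, which turns its direction, and 8 members reached an unadjusted p under 0.05. It was −0.46 with 14 such members without knockout replicate 3, −0.39 with 5 without knockout replicate 2, −0.45 with 0 without GSK343 replicate 3, −0.11 with 1 without GSK343 replicate 1, and −0.69 with 38 without the 2 shallowest libraries. Rpl15, a core protein of the large subunit, changed by −0.58 ± 0.28 and Rpl35a, a gene mutated in Diamond-Blackfan anaemia, by −0.66 ± 0.35. Rpl39, at the peptide tunnel, changed by −0.66 ± 0.37 and by 0.14 without knockout replicate 1. Rps10, with 4 counts in the knockout and 32 with GSK343, had a fitted change of 3.70 ± 1.92 that rests on these few counts. Rps27l stood at 150, 65.8 and 56.1 CPM in the knockout and at 68.6, 65.2 and 40.3 CPM with GSK343 (−0.62 ± 0.33).

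Against the control, which shares the GSK343 libraries with the comparison above, the median member change was 0.21 with 73 of 77 above 0 (48.5% of all genes) and 4 below (51.5%). Again 0 members passed the test, against 23 genes in all (0.166%), of which 21 were higher (0.151%) and 2 lower (0.0144%), no member reached an unadjusted p under 0.05 (4.34% of all genes did), and DESeq2 called 66 genes and 0 members. The groups overlapped in every tested member, while 4.65% of all genes separated upward and 6.71% downward. Without GSK343 replicate 3, or without the 2 shallowest libraries, the median was 0.00. It was 0.43 without control replicate 3 and 0.32 without GSK343 replicate 1, and 0.11 and 0.10 without control replicates 1 and 2. Rps20, which lies at the head of the small subunit, stood at 282, 247 and 422 CPM in the controls and at 330, 448 and 600 CPM with GSK343 (0.53 ± 0.31). Rpl29, which shares its sequence with many pseudogenes, was at 44.6, 25.2 and 55.1 CPM in the controls and 59.7, 48.8 and 76.3 CPM with GSK343 (0.54 ± 0.33). The groups overlapped for both. Rps23 (0.43), Rps19 (0.39), the gene most often mutated in Diamond-Blackfan anaemia, Rpl23a (0.33) and Rpl23 (0.29), which binds MDM2, followed.

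In the Mettl3 knockout the members lay lower than in the control, and no single gene passed the test. The Mettl14 line had the opposite direction only with its knockout replicate 1 in the fit (median 0.42 with it, −0.11 without it). The change was below 0 in 77 of 78 members (50.9% of all 16782 genes), with a median of −0.41 against −0.01 over all genes, −0.41 in the large and −0.35 in the small subunit. The test called 0 members and 0 genes (0%). At an unadjusted p under 0.05 there were 13 members and 315 genes (1.88%), and DESeq2 called 32 genes, none of them members. The 3 knockout libraries lay below all 3 controls in 11 members, against 6.61% of all genes that separated downward, and 0 members separated upward (6.45% of all genes).

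Rpl22 had the smallest p of the large subunit, with 621, 854 and 630 CPM in the controls and 547, 438 and 341 CPM in the knockout (−0.67 ± 0.23, unadjusted p = 0.0153, edgeR adjusted p = 1.00). All 3 knockout libraries lay below the controls. Rpsa was at 1652, 2347 and 1657 CPM in the controls and at 1537, 1254 and 983 CPM in the knockout (−0.58 ± 0.21, unadjusted p = 0.0162, edgeR adjusted p = 1.00), also without overlap. Rpl41 (−0.55 ± 0.21), Rpl37 (−0.61 ± 0.24), a zinc-binding protein of the large subunit, and Rps9 (−0.45 ± 0.19) came next. For Rplp1 the groups overlapped, with 1380, 2385 and 1554 CPM in the controls and 1648, 1117 and 842 CPM in the knockout.

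Single libraries moved this comparison too. Control replicate 2 was the highest of the line's 9 libraries for 66 of 75 members, and knockout replicate 3 the lowest for 27. The median change was −0.27 without that control and −0.26 without that knockout library, with 0 members at an unadjusted p under 0.05 in each case. It was −0.59 without knockout replicate 1, with 41 such members. Their number was 2 without knockout replicate 2, 5 without control replicate 3 and 17 without control replicate 1, and it was 40 with only the 2 groups fitted. Other short genes were lower too, with a median change of −0.33 over 808 genes of at most 1000 bases against 0.02 over longer ones, as did mitochondrial ribosomal proteins (−0.30, 71 of 77 below 0) and proteasome subunits (−0.35). Their part in the members' change was not tested.

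The only calls among the members came in the comparisons that use the GSK-J4 libraries. Against the control, the change joins that of the knockout and that of the inhibitor, and the untreated knockout alone had a member median of −0.41. Against the untreated knockout, the test called 3 of 78 members lower and 1 higher, where 9.07% and 3.96% of all genes were called. In the knockout with GSK-J4 against the control, 20 of 78 members fell and 0 rose, against 8.25% of all genes called lower and 3.16% called higher (edgeR, adjusted p under 0.05). The 20 were 10 of the 47 large-subunit and 10 of the 31 small-subunit members tested. Those of the large subunit included Rpl3, Rpl4, Rpl5, Rpl10, Rpl14, Rpl35a, Rpl36a, Rpl37 and Rpl37a. Those of the small included Rps3, Rps7, Rps9, Rps16, Rps19, Rps20, Rps21 and Rps23. The median member change was −0.64 (−0.63 in the large and −0.66 in the small subunit), against −0.08 over all genes, and 69 of 78 members were below 0 (52.5% of all genes). Other protein-coding genes of at most 1000 bases had a median change of −0.14 (808 genes), and longer ones −0.12. In 55 members all 3 GSK-J4 libraries lay below all 3 controls (23.5% of all genes), and in 0 members above (10.1%). An unadjusted p under 0.05 was reached by 45 members, against 27.9% of all genes.

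Rpl3, which reaches into the peptidyl transferase centre (ENSMUSG00000060036.14, chromosome 15, 80077791 to 80091868, minus strand), fell the most clearly. It stood at 509, 676 and 566 CPM in the controls, at 529, 382 and 359 CPM in the untreated knockout and at 332, 201 and 212 CPM with GSK-J4, 2.32-fold lower than the controls (−1.21 ± 0.24, edgeR adjusted p = 0.00805). Rps20 (chromosome 4, 3831334 to 3835665, minus strand) stood at 363, 441 and 357 CPM in the controls, at 399, 330 and 252 CPM in the knockout and at 191, 129 and 197 CPM with GSK-J4 (−1.15 ± 0.23, edgeR adjusted p = 0.00859). For both genes the GSK-J4 libraries lay below the other 6 of the line.

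Rps7, known to bind MDM2, was at 346, 522 and 406 CPM in the controls and at 232, 182 and 160 CPM with GSK-J4 (−1.13 ± 0.23, edgeR adjusted p = 0.00926). Rps23 was at 1230, 1721 and 1279 CPM against 789, 523 and 632 CPM (−1.10 ± 0.24, edgeR adjusted p = 0.0115). In both of these the highest GSK-J4 library lay below the lowest control. In the untreated knockout Rps7 was at 400, 336 and 266 CPM and Rps23 at 1265, 925 and 757 CPM. The GSK-J4 libraries lay below that group for Rps7 and overlapped it for Rps23.

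Rps3, at the mRNA entry channel and also a DNA repair endonuclease, was at 719, 970 and 816 CPM against 461, 492 and 406 CPM (−0.87 ± 0.19, edgeR adjusted p = 0.0140). Rpl36a, which lies near the tRNA exit site, was at 286, 369 and 274 CPM against 171, 139 and 161 CPM (−0.97 ± 0.22, edgeR adjusted p = 0.0168). The groups were separate for both. In the untreated knockout Rps3 was at 745, 581 and 516 CPM and Rpl36a at 298, 232 and 181 CPM.

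**Figure D5:**
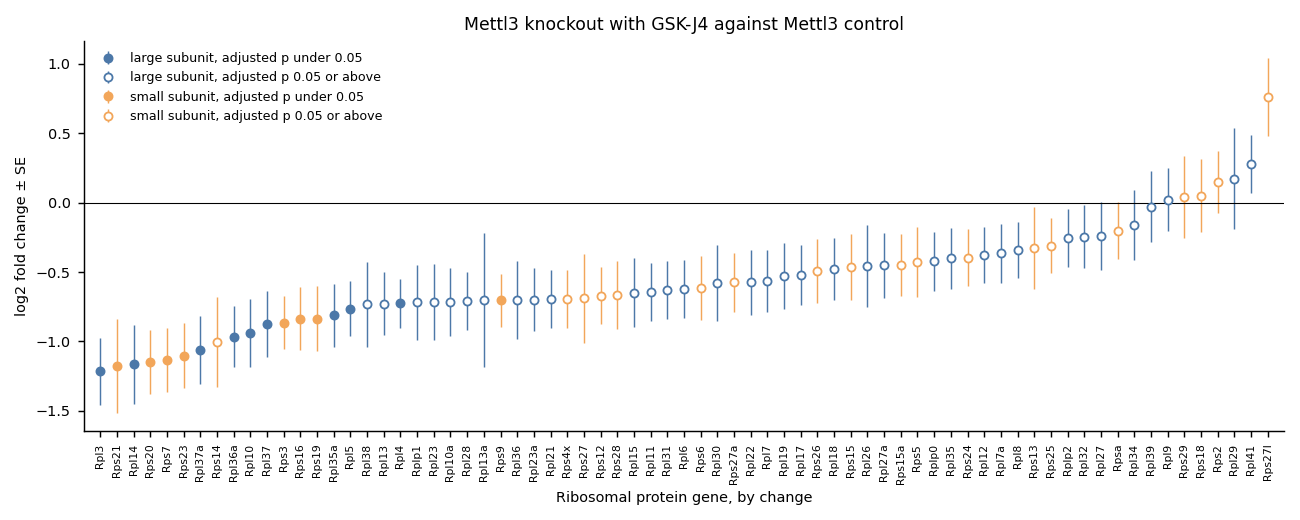
Log2 change (± SE) of 71 of the 75 members above the near-0 range in the Mettl3 knockout with GSK-J4 against the control, ordered by size with the subunits in separate colours; filled points have an edgeR adjusted p under 0.05. Of the 44 large-subunit genes drawn 41 lie below 0 and 9 are called lower, and of the 27 small-subunit genes drawn 23 lie below 0 and 8 are called lower.

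A few members did not follow. Rps27l stood at 80.2, 99.0 and 73.7 CPM in the controls, at 85.8, 76.5 and 64.5 CPM in the knockout and at 189, 90.3 and 145 CPM with GSK-J4. Its change was 0.76 ± 0.28 against the control (edgeR adjusted p = 0.103) and 0.92 ± 0.28 against the untreated knockout (edgeR adjusted p = 0.0523), and the GSK-J4 libraries overlapped only the controls. With plain library sizes, Rps27l was called higher in both comparisons (1.03, adjusted p = 0.0354, and 1.17, adjusted p = 0.0188, by edgeR), and so it was with DESeq2 (0.87, adjusted p = 0.0262, and 1.00, adjusted p = 0.0077). With RLE size factors, another scaling, it was called only against the untreated knockout (edgeR adjusted p = 0.0390, and 0.0706 against the control). No member was called higher against the control without the low-count filter, with the replicate block, with only the 2 groups or with all 18 libraries. Rpl41 stood at 783, 977 and 748 CPM in the controls, at 743, 527 and 446 CPM in the knockout and at 1052, 871 and 1079 CPM with GSK-J4 (0.28 ± 0.21 against the control, edgeR adjusted p = 0.428). The rest above 0 and above the near-0 range were Rpl29 (0.17), Rps2 (0.15), Rps18 (0.05), Rps29 (0.04) and Rpl9 (0.02), named after their values were seen.

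How many members were called depended on the scaling and on single libraries. With plain library sizes the median change of all genes was 0.18, the median of the members −0.37 and the number called lower 6 (Rpl3, Rps20, Rps7 and Rps23 among them), and the split of all calls became 994 higher and 1088 lower, from 531 and 1385. Since a scaling shifts all genes alike, the members' median minus that of all genes was −0.55 whichever was used, which is no check of the calls. Called lower were 3 members without control replicate 2, 8 without control replicate 3, 30 without GSK-J4 replicate 3 and 41 without GSK-J4 replicate 1. The GSK-J4 libraries also had the lowest mitochondrial mRNA and mesenchyme marker sums given above, and higher sums of some other markers: muscle at 35.8 to 111 CPM against 3.34 to 25.1 elsewhere, blood and endothelium at 39.2 to 50.7 against 4.15 to 20.03, and endoderm at 6.77 to 17.8 against 0 to 2.81. Neural markers, at 60.0 to 70.3 CPM, lay below the 117 to 206 of the other Mettl3-line libraries and within the 22.5 to 76.5 of the Mettl14 line. The sums of the stem cell markers and of the early mesoderm and trophoblast markers overlapped those elsewhere. Whether these bear on the members was not tested.

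Against the untreated knockout, which shares the GSK-J4 libraries, fewer members were called. The test called 3 members lower, Rps20 and Rps7 among them, and 1, Rpl41, higher, against 9.07% and 3.96% of all genes, and 15 members reached an unadjusted p under 0.05 (28.5% of all genes). The median change was −0.24 (−0.06 over all genes), with 55 of 78 members below 0 (51.8% of all genes), and its size depended on the settings. It was 0.00 with plain library sizes (40 members above and 38 below 0), −0.07 without knockout replicate 1, −0.12 without GSK-J4 replicate 2 and −0.44 without GSK-J4 replicate 1. With plain library sizes the median of all genes was 0.185. The members' median minus that of all genes was then −0.182, against −0.187 with TMM, which is no check of the calls. Other protein-coding genes of at most 1000 bases had a median change of 0.20 here, and longer ones −0.13. Their part in the members' change was not tested. The groups separated in 11 members downward (22.5% of all genes) and in 2 members upward, Rpl41 and Rps27l (10.6%). Rps20 changed by −0.91 ± 0.23 (edgeR adjusted p = 0.0252) and Rps7 by −0.79 ± 0.23 (edgeR adjusted p = 0.0442). Rpl41 changed by 0.82 ± 0.21 (edgeR adjusted p = 0.0265). Just short of the threshold were Rpl10, which joins the large subunit late and is known for mutations in leukaemia (−0.80 ± 0.25, edgeR adjusted p = 0.0534), and Rpl4 (−0.56 ± 0.17, edgeR adjusted p = 0.0564). With plain library sizes, under which all calls split into 1181 higher and 1231 lower in place of 664 and 1522, the members called were Rpl41 (1.07) and Rps27l (1.17), both higher, and none lower.

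Other parts of the translation machinery are given beside the members, with no test between the lists. Of all genes, 3.96% were called higher and 9.07% lower against the untreated knockout, and 3.16% and 8.25% against the control, and several lists below lie near these shares. Of 40 ribosome biogenesis genes, 11 rose and 0 fell against the untreated knockout (median 0.72), led by the snoRNP proteins Nop58 (1.57, edgeR adjusted p = 0.00154) and Fbl (1.47, edgeR adjusted p = 0.00232), and 7 rose and 0 fell against the control (median 0.51). Of 36 translation factors, 5 rose and 3 fell against the untreated knockout. Eef1a1, which delivers aminoacyl-tRNA to the ribosome and is itself a TOP mRNA, fell from 5467, 5273 and 4663 CPM in the knockout to 2554, 1420 and 1861 CPM (−1.38 ± 0.21, edgeR adjusted p = 0.00164), without overlap. Against the control 3 factors rose and 3 fell, among them Eef1a1 (−1.47) and Eef1b2 (−1.11). Of 14 further ribosomal or ribosome-associated proteins that the symbol rule leaves out, 1 rose and 1 fell against the untreated knockout (7 above and 7 below 0), and 4 fell and 0 rose against the control. Among the 4 were Rps3a1, a small-subunit protein at 647, 912 and 742 CPM in the controls and 512, 277 and 404 CPM with GSK-J4 (−0.93 ± 0.24, edgeR adjusted p = 0.0311), and the growth-related TOP gene Tpt1 (−0.80, edgeR adjusted p = 0.0183). Of 15 genes of growth signalling to these mRNAs, Cnbp rose in both comparisons (1.29 and 0.88) and Rheb, the activator of mTORC1, in that against the knockout (0.88). Mitochondrial ribosomal proteins, 77 in number, had 4 called higher and 0 lower against the untreated knockout and 0 higher and 1 lower against the control. Proteasome genes had 0 called higher and 2 lower in each comparison. In the knockouts without inhibitor edgeR called no gene at all, so none of these lists held a call; the median change of the biogenesis genes was 0.04 in the Mettl14 and −0.13 in the Mettl3 knockout, and that of the translation factors 0.03 and −0.17.

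The 2 knockout effects were compared directly over all 18 libraries. The Mettl3 effect minus the Mettl14 effect was below 0 in 76 of 77 members (48% of 16326 genes), with a median of −0.79 against 0.03 over all genes, but the test called 0 members and 0 genes (0%). An unadjusted p under 0.05 was reached by 25 members, against 366 genes (2.24%), and DESeq2 called 21 genes and 0 members. Rpl22 differed by −1.25 ± 0.46 (unadjusted p = 0.0121, edgeR adjusted p = 1.00), Rps23 by −1.16 ± 0.42, Rpl26 by −1.23 ± 0.48 and Rpl36 by −1.25 ± 0.51. Rps3 differed by −0.80 ± 0.31. Without Mettl14 knockout replicate 1 the median was −0.24, with 63 of 78 members below and 15 above 0 and 0 at an unadjusted p under 0.05. The number of such members was 60 without Mettl14 knockout replicate 3, 49 without Mettl14 control replicate 3, 40 without Mettl3 knockout replicate 1 and 58 without the 2 shallowest libraries, and between 4 and 14 when Mettl14 control replicate 1 or 2, Mettl3 control replicate 2 or Mettl3 knockout replicate 2 or 3 was left out.

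The members can also be set side by side by the pyrimidine run shown at their starts. Over the 27 with it and 28 without it that had a RefSeq start and an appreciable level, the median log2 change was 0.47 and 0.40 in the Mettl14 knockout and −0.35 and −0.41 in the Mettl3 knockout, each against its control. With GSK-J4 it was −0.49 and −0.68 against the control and −0.05 and −0.28 against the untreated knockout. The ranges overlapped widely, from −1.18 to 0.76 with the run and from −1.13 to 0.28 without it in the comparison of GSK-J4 with the control, and these are descriptions across genes of the same libraries.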

How the data were processed

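Per the submitters' processing notes, reads were processed with CASAVA, Trimmomatic 0.38, HISAT2 2.1.0 and HTSeq, with mm10 as the genome build. Per the labels' protocols, poly(A) RNA was selected and libraries were made with a stranded SMARTer total RNA kit. Each deposited file holds raw counts by gene, per the labels. A statement of the annotation release and of the strand handling was not given in the sources used here. Of the identifiers, 54409 matched GENCODE M21 (GRCm38) without version and 37 did not.

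The 9 libraries of a line entered 1 fit in R 4.3.3 (edgeR 4.0.16 with filterByExpr, TMM and the quasi-likelihood F test). The knockout effects were compared in a fit of all 18. Called genes have a Benjamini-Hochberg adjusted p under 0.05 over all genes tested. Rpl10l and Rpl3l were filtered out in both lines, and Rpl24 in the Mettl14 line and in the fit of all 18. CPM are TMM-scaled within a line, except for the floor and the levels of single cell type markers, which are scaled to the library total only. The summed marker levels are TMM-scaled. By-library deviations use log2(CPM + 1). Copies were found with BLAST 2.17.0. Pandas 2.3.3, scipy 1.17.1 and matplotlib 3.10.9 were used in Python 3.11.15. The fits were tested on simulated data. No 2 libraries were identical, and counts of replicates differed beyond sampling noise.

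The members and lists were chosen with earlier results of these data known. Named are Mettl14 and Mettl3, up to 6 called members and the 3 of each subunit with the smallest p per comparison, the 3 most abundant per length of each subunit, the stalk genes, Rpsa, the paralogs ending in l, members at 0 and those with most copies, and up to 2 genes of each other list. Some members that this rule names are not reported here by name or drawn singly, though counts and medians include them. The principal-transcript length was added after the longest transcripts proved to hold retained introns. Other settings were DESeq2 1.42.0, RLE size factors, plain library size, no low-count filter, a replicate block, only the 2 groups compared, all 18 libraries in 1 fit, omission of the 2 shallowest Mettl14-line libraries and of each library in turn.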

Additional observations from a re-analysis of the deposited data

How the results depend on the processing

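The number of all genes called moved with the settings. Against the untreated knockout, GSK-J4 gave 4385 with DESeq2, 3373 with all 18 libraries, 977 with only the 2 groups, 1407 with the replicate block, and 1032 to 3061 with a library left out. Against the control it gave 4278, 3155, 887 and 1256 under the same settings, and 888 to 2798. GSK343 against the knockout gave 55 with DESeq2, 1 with RLE, 0 with all 18, 50 without the filter, 1 with the block, 2 without the 2 shallowest libraries, and 0 to 14 with a library left out. Against the control it gave 66 with DESeq2, 2 with all 18, 63 without the filter, 35 with only the 2 groups, 37 without the 2 shallowest, and 4 to 28. The Mettl14 knockout gave 15 without the filter and 0 to 7 with a library left out. The Mettl3 knockout gave 32 with DESeq2, 6 without the filter and 2 with only the 2 groups, and the difference of the knockout effects 21 with DESeq2 and 13 without the filter, with 0 in both whichever library was left out.

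Members called higher with GSK-J4 against the knockout numbered 2 with DESeq2, RLE or plain library size, 0 with all 18, the 2 groups or the block, and 0 to 3 with a library left out. Members called lower there numbered 5 with DESeq2, 1 with RLE, 10 without the filter, 0 with the 2 groups, plain size or the block, and 0 to 11. Against the control, 1 was higher with DESeq2 and plain size (0 to 1), and 12 were lower with RLE, 42 without the filter, 12 with the 2 groups, 6 with plain size, 11 with the block and 3 to 41 with a library left out. All 20 genes called lower were also called with DESeq2 and without the filter. The median there was −0.37 with plain size and −0.85 to −0.52 with a library left out, and that of the difference of the knockout effects −1.06 to −0.24. Rpl18 in the Mettl14 knockout ran from −0.17 to 1.04 and Rpl39 with GSK343 from −0.91 to 0.14, and the causes were not tested. Replicate numbers did not pair the libraries (correlations of same-number libraries −0.12 to 0.102 over 18 pairs), so the block is only a setting. Depth limits the Mettl14 line most, whose shallowest libraries hold 721853 and 1303697 counts.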
